A study of Mus musculus with 4 samples.

Results

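The transcripts of 9 transcription factors that specify and maintain the myeloid lineage were followed in macrophages of the injured mouse nerve: Spi1, Cebpa, Cebpb, Cebpd, Irf8, Maf, Klf4, Runx1 and Irf5. They were chosen by name, and all 9 are among the 24028 genes of the deposited expression table. The cells were macrophages sorted from the sciatic nerve of female mice 3 days after nerve injury, and every mouse carried the reporters Cx3cr1-GFP+/- and Ccr2-RFP+/-. In these reporter alleles the fluorescent protein takes the place of the receptor's coding sequence, so each mouse kept a single intact copy of Cx3cr1 and of Ccr2. Young mice were 3 months old and aged mice 15 months old. Per the series' design, 7 to 8 mice were used at a time point and pooled to make 2 RNA sequencing libraries of each age, so each mean below is over 2 pools. Which mice went into which pool, the sort gates and the kind of injury were not stated in the sources used here.

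PU.1, the product of Spi1, and the C/EBP proteins open chromatin at macrophage genes and act together at many of them. RUNX1 acts earlier, in blood stem cells, and opens the Spi1 locus, while IRF8 and KLF4 steer progenitors towards monocytes rather than granulocytes. IRF5, C/EBPβ, C/EBPδ and c-Maf act mostly in mature macrophages, where the first 3 serve inflammatory gene expression and c-Maf serves interleukin 10 expression and exit from the cell cycle.

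Levels are given in FPKM, fragments per kilobase of transcript scaled by library size. Transcript length is divided out, so levels compare between genes only as far as the length used for each gene holds. The length in the values was 1333 bases for Spi1 and 3642 for Maf, beside 2695 and 8241 exon bases in GENCODE. For Cebpa it was 2639 beside 2636 bases. The order of the factors by level thus depends on the lengths used. The libraries held 8613360 to 11489336 reads, where 1 read over a 2 kb transcript equals 0.0435 to 0.0580 FPKM. Each difference is the aged mean minus the young mean of log2(FPKM + 1), a scale on which low genes appear to differ less than they do. P-values measure the spread between these pools, which may be technical. In bulk samples, fewer cells of a type and less RNA per cell cannot be told apart.

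All 11 macrophage and monocyte markers had a mean of at least 1 FPKM, and their values ran from 16.1 FPKM (Cx3cr1) to 12270 FPKM (Lyz2). Summed markers of each other cell type were much lower but above 0, and 3 libraries stood apart in them. Young replicate 2 had the highest sum of 7 fibroblast markers, 200.2 FPKM beside 41.1 to 90.3 FPKM in the other libraries. T and NK cell markers summed to 103.2 FPKM in aged replicate 2, of which 97.8 FPKM was Cd3g, and to 4.42 to 9.36 FPKM in the others. B cell markers summed to 31.3 FPKM in aged replicate 1 and to 7.73 to 11.5 FPKM in the others. Schwann cell markers gave 66.2 to 85.7 FPKM.

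Of the 9 factors, 8 had a mean over the libraries above 20 FPKM, and Cebpd was the lowest. Maf led at 119.1 FPKM, followed by Irf5 at 115.8, Spi1 at 100.8, Cebpa at 68.0, Cebpb at 56.9, Klf4 at 48.1, Irf8 at 45.5, Runx1 at 21.5 and Cebpd at 6.91 FPKM. In rank these levels ran from place 452 (Maf) to place 6069 (Cebpd) of all 24028 genes. The order was loose down to Irf8: each neighbouring pair in it was the same way round in at most 3 of the 4 libraries, and Klf4 and Irf8 in 2 of 4. Runx1 lay below Irf8 and above Cebpd in all 4 libraries, with no overlap of their ranges. Maf was the highest of the 9 in both young libraries, Spi1 in aged replicate 1 and Irf5 in aged replicate 2.

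**Figure D1:**
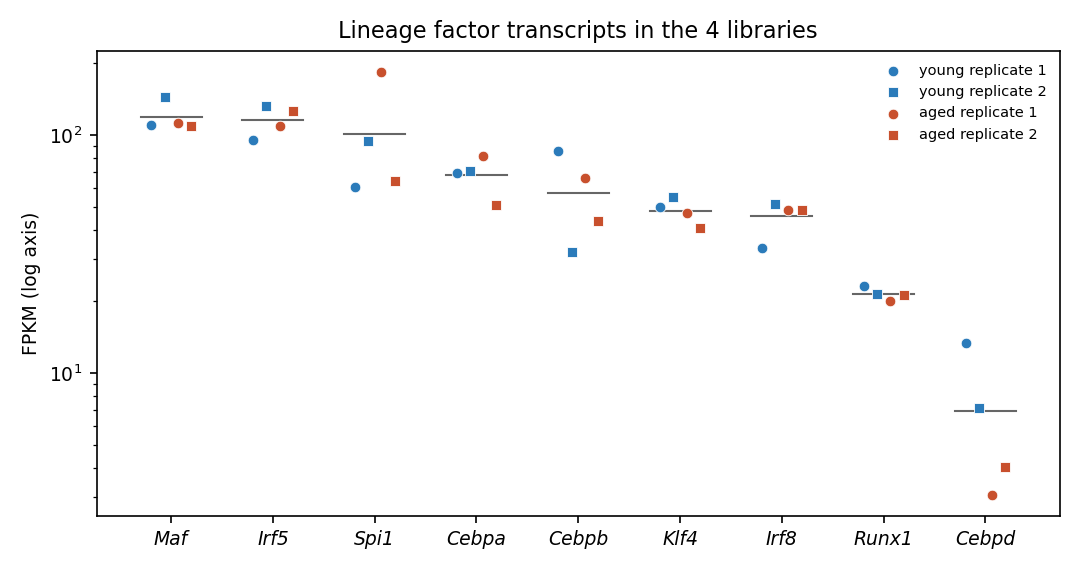
Level of each factor in FPKM (log axis) in the 4 libraries, with young libraries in blue, aged libraries in red, replicate 1 as circles, replicate 2 as squares and the mean over the libraries as a line. The factors are in order of their mean, from Maf at 119.1 FPKM to Cebpd at 6.91 FPKM, and Spi1 of aged replicate 1 at 184 FPKM is the highest value.

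None of the 9 factors was called different between the ages. All 9 passed the minimum mean of 1 FPKM, and limma with Benjamini-Hochberg adjustment over the 11656 genes tested called 0 of them at an adjusted p under 0.05, where it called 0% of all genes, the lowest adjusted p being 0.567. At an unadjusted p under 0.05 there were 773 genes, among them Cebpd as the only factor of the 9. Both aged libraries were below both young ones in 3 factors (Cebpd, Klf4 and Runx1), where 26.2% of all genes tested did so. Both aged libraries were above both young ones in 0 factors, beside 11.8% of all genes. The median difference of the 9 was -0.11 (quartiles -0.18 and 0.06), beside a median of -0.09 (quartiles -0.36 and 0.18) over all genes tested, so the factors lay about the middle of the distribution.

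**Figure D2:**
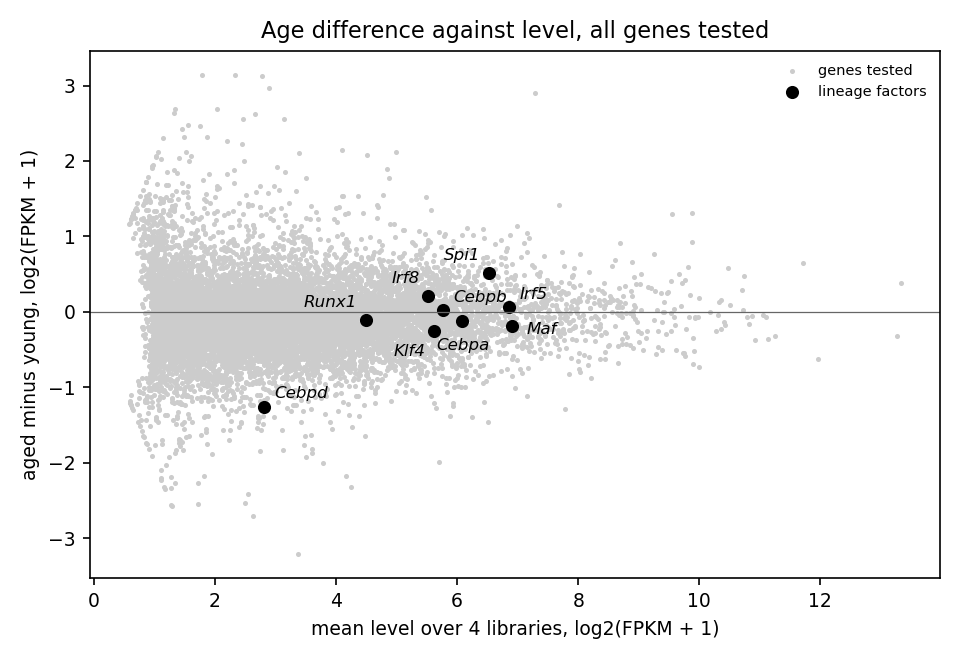
Difference between the ages (aged minus young, log2(FPKM + 1)) of each gene tested against its mean level over the 4 libraries on the same scale, with the 9 factors in black and named. Cebpd lies lowest of the 9 at -1.26 and Spi1 highest at 0.52, and the other factors lie between -0.25 and 0.22.

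Spi1 (Entrez 20375; chromosome 2, 91082374 to 91115759, plus strand, GRCm38) was the factor whose aged libraries differed most from each other. Its level was 60.4 and 94.7 FPKM in the young libraries and 184 and 63.9 FPKM in the aged libraries. Aged replicate 1 stood above the other 3 libraries, aged replicate 2 lay within the young range, and the ages overlapped. The aged pair differed by 2.88-fold, a gap of 1.51 on the log2 scale that only 6.15% of the genes tested exceeded. Counting error did not span it: with 2116 reads in aged replicate 1 and 851 in aged replicate 2, the 95% Poisson intervals were 176.5 to 192.3 and 59.7 to 68.4 FPKM. Reads carry no molecular identifiers here, so such intervals cover counting error only. The means were 77.6 ± 24.3 FPKM in young against 124.1 ± 85.1 FPKM in aged cells (SD, n = 2 libraries each), a log2 difference of 0.52 (SE 0.51; limma, adjusted p 0.834). Without aged replicate 1 the difference was -0.24, and without aged replicate 2 it was 1.27 (limma, adjusted p 0.518, with the lone aged library assumed to vary like the young pair), so its direction rested on 1 library. Summed B cell markers, a lineage that also uses PU.1, were 31.3 FPKM in aged replicate 1 and 7.73, 11.5 and 9.08 FPKM in young replicates 1 and 2 and aged replicate 2. Of that sum in aged replicate 1, 18.7 FPKM was Pax5 and 11.1 FPKM Cd79b, which was 5.45, 7.99 and 2.84 FPKM in the other 3 libraries, while Cd79a and Ms4a1 were at most 0.590 FPKM in any library. The part of B cells in the level of Spi1 was not tested.

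Cebpa (Entrez 12606; chromosome 7, 35119293 to 35121928, plus strand) encodes C/EBPα, which commits progenitors to the granulocyte and macrophage lines. Its level was 69.3 and 70.7 FPKM in the young libraries and 81.5 and 50.6 FPKM in the aged libraries, so the aged values lay on either side of a close young pair. The gap within the young pair was 0.03 on the log2 scale, and 94.5% of genes tested had a wider one, against a gap of 0.68 within the aged pair. The means were 70.0 ± 0.983 and 66.0 ± 21.9 FPKM, a log2 difference of -0.12 (SE 0.27; limma, adjusted p 0.933), which was 0.22 without aged replicate 2. With the median ratio the young pair was not close, at 75.6 and 60.15 against 81.4 and 55.0 in aged libraries, with overlap. As deposited the values were 84.45 and 83.9 against 61.1 and 53.55 FPKM. There both aged libraries were below both young ones, as in 4561 of 11838 genes.

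Cebpb (Entrez 12608; chromosome 2, 167688915 to 167690432, plus strand), a gene of a single exon, encodes C/EBPβ, an inflammatory C/EBP factor that is itself induced by cytokines and cyclic AMP. Its level was 85.6 and 32.3 FPKM in the young libraries and 66.1 and 43.5 FPKM in the aged libraries. Here the spread was among the young: both aged libraries lay inside the young range. The young pair differed by 2.65-fold, a gap of 1.38 on the log2 scale that 2.72% of genes tested exceeded, with 1493 and 528 reads. Young replicate 2, the low one, was also the library with 200.2 FPKM of fibroblast markers, and their part in the gap was not tested. The mean was 59.0 ± 37.7 FPKM in young against 54.8 ± 15.9 FPKM in aged cells, a log2 difference of 0.03 (SE 0.47; limma, adjusted p 0.994) that ran from -0.66 without young replicate 2 to 0.71 without young replicate 1. The exon of Cebpb overlaps those of Tmem189 on the opposite strand over 312 of 1504 bases. The sources used here do not say whether reads were counted by strand, so reads of the 2 genes may not be told apart there. Tmem189 was 108.1 and 106.2 FPKM in young against 182.4 and 189.6 FPKM in aged libraries, with each pair close together.

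The 250 bases before the RefSeq start are printed for both genes to show that these relatives, close in level, have unlike start regions. Sequences are from RefSeq on GRCm38.p6, and capitals mark a TATA box (TATAAA) in Cebpa, chr7:35119043-35119292, and the core letters bound by CREB and ATF factors (TGACG, or CGTCA on the other strand) in Cebpb, chr2:167688665-167688914, both on the plus strand.
Cebpa: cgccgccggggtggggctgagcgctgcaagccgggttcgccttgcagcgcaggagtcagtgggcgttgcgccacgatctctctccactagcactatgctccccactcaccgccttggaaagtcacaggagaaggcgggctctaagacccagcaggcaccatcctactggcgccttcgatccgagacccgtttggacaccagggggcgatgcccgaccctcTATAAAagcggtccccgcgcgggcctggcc
Cebpb: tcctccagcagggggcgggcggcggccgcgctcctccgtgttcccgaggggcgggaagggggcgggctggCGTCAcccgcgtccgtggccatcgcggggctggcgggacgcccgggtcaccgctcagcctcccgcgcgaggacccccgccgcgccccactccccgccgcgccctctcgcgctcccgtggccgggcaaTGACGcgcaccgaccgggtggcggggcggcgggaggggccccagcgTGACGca
The TATA box of Cebpa begins 30 bases before the start, and 12.4% of 32851 mouse promoters of this length hold that motif on either strand. Cebpb has no TATAAA there and has 3 of these cores, beginning 180, 53 and 7 bases before the start, where 17.8% of promoters hold at least 1. Its window is 81.6% G and C, above 99.3% of promoters, with 41 CpG, while that of Cebpa is 66.4% G and C with 22 CpG. The motifs GAGGAA (PU.1) and TTGCNNAA (C/EBP), held by 23.3% and 9.56% of promoters on either strand, were in neither window. These matches describe letters and show no binding.

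Cebpd (Entrez 12609; chromosome 16, 15887286 to 15889545, plus strand) encodes C/EBPδ, which is low in resting macrophages and induced by inflammatory signals. It was the factor with the widest difference between the ages. Its level was 13.4 and 7.15 FPKM in the young libraries and 3.08 and 4.03 FPKM in the aged libraries, from 347, 174, 60 and 91 reads. Both aged libraries were below both young ones, and the 95% Poisson intervals of the nearest pair, 6.13 to 8.30 in young replicate 2 and 3.25 to 4.95 FPKM in aged replicate 2, did not meet. The means were 10.3 ± 4.39 FPKM in young against 3.56 ± 0.672 FPKM in aged cells, 2.88-fold higher in young. The log2 difference of -1.26 (SE 0.37) exceeded the gaps of 0.82 within the young and 0.30 within the aged pair. It had an unadjusted limma p of 0.0135 and an adjusted p of 0.740, so it did not pass, and 189 genes had a smaller p. Lower differences were found in 1.12% of genes tested.

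The lower level of Cebpd in both aged libraries held on each scaling tried. Its margin over the gap within the young pair did not hold as clearly. With the median ratio the values were 14.6 and 6.08 in young and 3.08 and 4.39 in aged libraries. The young pair then lay further apart and the difference between the ages was smaller, at -1.16. Over the 14 alternatives of the fit the difference of Cebpd ran from -1.66 to -0.85. Cebpd shares 322 of 2260 exon bases with Spidr on the opposite strand, where reads of these genes may not be told apart. Spidr was 2.75 and 3.86 FPKM in young against 3.32 and 2.23 FPKM in aged libraries, in which Cebpd was 3.08 and 4.03 FPKM. Summed endothelial markers were 24.6 and 19.2 FPKM in young against 10.4 and 12.6 FPKM in aged libraries, but 16.9 FPKM of the sum in young replicate 1 was Cldn5. Without Cldn5 the sums were 7.73 and 18.75 against 8.92 and 11.6 FPKM, with overlap. Fibroblast markers summed to 41.1 and 200.2 against 90.3 and 65.0 FPKM. The part of these cells in the level of Cebpd was not tested.

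Irf8 (Entrez 15900; chromosome 8, 120736358 to 120756694, plus strand) encodes the interferon regulatory factor required for monocyte and dendritic cell formation. Its level was 33.6 and 51.3 FPKM in the young libraries and 48.4 and 48.6 FPKM in the aged libraries. Young replicate 1 was the low library, and the aged libraries lay almost together within the young range. The aged gap was 0.01 on the log2 scale, and 98.7% of genes tested had a wider one. The means were 42.5 ± 12.5 and 48.5 ± 0.165 FPKM, a log2 difference of 0.22 (SE 0.26; limma, adjusted p 0.864) that was -0.08 without young replicate 1. Scaled by the median ratio between libraries, its values were 36.7 and 43.7 in young and 48.3 and 52.9 in aged libraries, with both aged libraries above both young ones, as in 17.2% of all genes on that scaling. The summed markers of dendritic cells, which also express Irf8, were 58.4 and 72.6 FPKM in young against 48.9 and 65.8 FPKM in aged libraries.

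Irf8 is induced by interferons through STAT factors, and the 250 bases before its upstream RefSeq start are printed since they hold matches for them. The window is chr8:120736108-120736357 on the plus strand, GRCm38.p6, and capitals mark 2 matches to the STAT motif TTCNNNGAA and a TATAAA.
Irf8: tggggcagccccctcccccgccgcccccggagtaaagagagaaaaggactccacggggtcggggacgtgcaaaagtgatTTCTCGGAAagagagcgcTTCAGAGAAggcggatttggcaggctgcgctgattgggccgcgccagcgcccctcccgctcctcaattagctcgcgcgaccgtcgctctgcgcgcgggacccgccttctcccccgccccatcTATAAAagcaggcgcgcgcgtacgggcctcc
The STAT matches are TTCTCGGAA, beginning 171 bases before the start, and TTCAGAGAA, beginning 153 before it, and the TATA box begins 31 before it. Of all promoters of this length 7.02% hold a STAT match of this form, which reads the same on both strands. Among the 8 start windows found for 6 of the 9 factors, it was the only one with such a match.

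Irf5 (Entrez 27056; chromosome 6, 29526130 to 29541869, plus strand) encodes the factor that drives interleukin 12 and other inflammatory cytokine genes downstream of Toll-like receptors. Its level was 95.5 and 132.1 FPKM in the young libraries and 109.1 and 126.6 FPKM in the aged libraries. Both aged libraries lay inside the young range. The means were 113.8 ± 25.9 and 118 ± 12.4 FPKM, a log2 difference of 0.06 (SE 0.24; limma, adjusted p 0.966), which was -0.17 without young replicate 1 and -0.04 without aged replicate 2. Irf5 shares 411 of 2903 exon bases with Tnpo3 on the opposite strand, and Tnpo3 was 12.1 to 15.4 FPKM.

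Maf (Entrez 17132; chromosome 8, 115703253 to 115706894, minus strand) encodes c-Maf, a large Maf factor of differentiated macrophages. Its level was 110.4 and 144.1 FPKM in the young libraries and 112.5 and 109.5 FPKM in the aged libraries. Young replicate 2 was the high library and the other 3 lay between 109.5 and 112.5 FPKM. The means were 127 ± 23.8 and 111 ± 2.15 FPKM, a log2 difference of -0.18 (SE 0.22; limma, adjusted p 0.864), which was 0.0069 without young replicate 2. Scaled by the median ratio, the values were 120.4 and 122.6 in young and 112.4 and 119.1 in aged libraries, with both aged libraries below both young ones, as in 18.2% of all genes on that scaling. Maf shares 401 of 3642 exon bases with Gm15655 on the opposite strand, a gene without a value here. Of the 50-base stretches of its transcripts, 4.64% also occur in transcripts of 707 other genes. Young replicate 2 had the highest level of Irf8, Irf5, Maf and Klf4, and also the most fibroblast markers. Its median ratio factor was 1.176, beside 0.917 to 1.001 in the other libraries, so the typical gene read higher in it. On the median ratio it was the highest library in Maf only, with Irf8 (52.9) and Irf5 (137.8) highest in aged replicate 2 and Klf4 (54.4) in young replicate 1. The part of fibroblasts in these 4 values was not tested.

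Klf4 (Entrez 16600; chromosome 4, 55527137 to 55532475, minus strand) encodes a Krüppel-like factor needed for inflammatory monocytes. Its level was 49.9 and 54.9 FPKM in the young libraries and 46.9 and 40.8 FPKM in the aged libraries. Both aged libraries were below both young ones, by a narrow margin. The means were 52.4 ± 3.54 and 43.8 ± 4.30 FPKM, a log2 difference of -0.25 (SE 0.21; limma, p 0.265, adjusted p 0.797), beside gaps of 0.14 and 0.20 within the ages. Scaled by the median ratio, the values were 54.4 and 46.7 in young and 46.85 and 44.4 in aged libraries, and the ages overlapped.

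Runx1 (Entrez 12394; chromosome 16, 92601466 to 92826074, minus strand) encodes a DNA-binding subunit of core binding factor and was the steadiest of the 9 when scaled by library size. Its level was 23.1 and 21.4 FPKM in the young libraries and 20.1 and 21.2 FPKM in the aged libraries, so its highest library exceeded its lowest by 1.15-fold. Both aged libraries lay below both young ones, but the nearest pair could not be told apart by counting: the Poisson intervals were 20.5 to 22.4 in young replicate 2 and 20.3 to 22.1 FPKM in aged replicate 2. That of young replicate 1, 22.2 to 24.1 FPKM, met neither aged interval. The means were 22.3 ± 1.21 and 20.6 ± 0.794 FPKM, a log2 difference of -0.11 (SE 0.22; limma, adjusted p 0.925). With the median ratio the difference was 0.0022 and the ages overlapped. Its values there were 25.2 and 18.2 in young and 20.05 and 23.05 in aged libraries. They spread wider than those of Maf, which ran from 112.4 to 122.6, so the steadiness of Runx1 depended on the scaling. The upstream of the 2 RefSeq starts of Runx1 lies in a window of 45.6% G and C, below the median of 52.4% over all promoters, and the other in one of 67.6%.

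Across the 9 factors, at least 1 of the gaps between pools of the same age was wider than the difference between the ages in 6. The difference was wider than both gaps in Cebpd, Klf4 and Runx1, the 3 in which the ages did not overlap. How many of all genes tested had so wide a difference was not counted. Both aged libraries lay below both young ones in 26.2% of them and above in 11.8%. With the median ratio the ages overlapped in Klf4 and Runx1. The young pair lay furthest apart in Cebpb (1.38 on the log2 scale) and the aged pair in Spi1 (1.51), beside median gaps of 0.31 and 0.35 over all genes tested. The factors did not follow a single library: young replicate 1 was the highest of the 4 in 3 factors, young replicate 2 in 4, aged replicate 1 in 2 and aged replicate 2 in 0. Outside Cebpd, the other 8 factors had 528 to 5651 reads in each library. Counting error still spanned the narrow margin between the nearest libraries of Runx1, as given above, and of Klf4. For Klf4 the Poisson intervals were 47.6 to 52.3 FPKM in young replicate 1 and 44.3 to 49.6 FPKM in aged replicate 1.

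**Figure D3:**
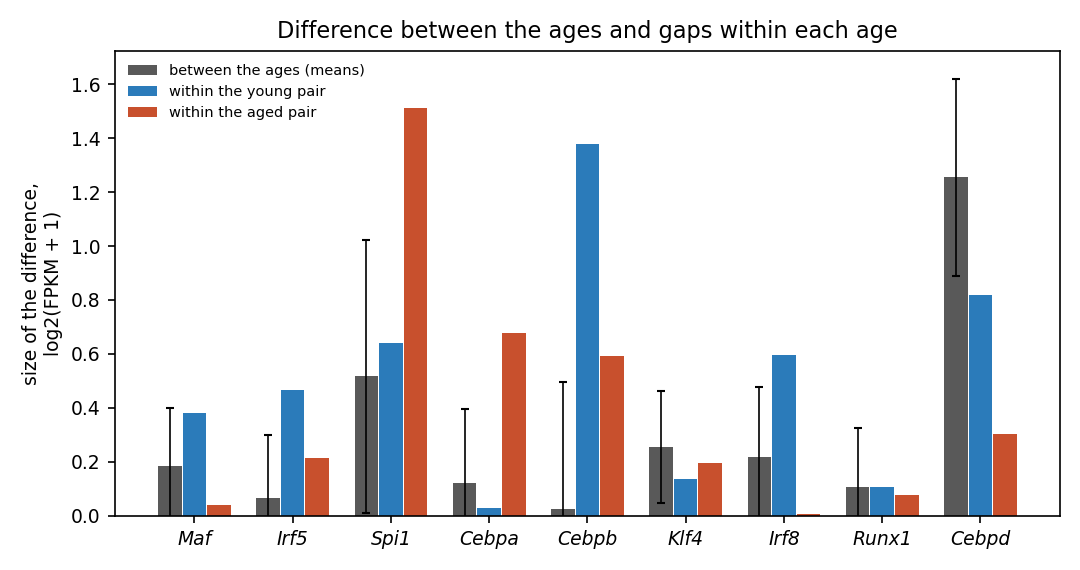
Size of the difference between the ages (grey, with the SE of limma as error bar) beside the gaps between the 2 young (blue) and the 2 aged libraries (red) of each factor, all on the scale of log2(FPKM + 1). The aged gap of Spi1 (1.51) and the young gap of Cebpb (1.38) are the tallest bars, and Cebpd is the factor whose age difference (1.26 in size) stands well above its gaps.

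Ratios between transcripts of a library, in which depth cancels, were compared for 7 pairs of a factor and a relative, partner or target, of which 6 are given. With 2 against 2 libraries, the exact permutation test over libraries cannot go below 0.333, so no ratio could pass. The ratio of Cebpd to Cebpb was 0.156 and 0.221 in the young and 0.0466 and 0.0926 in the aged libraries. Both aged ratios lay below both young ones, by 2.83-fold in the mean (two-sided exact p 0.333). The ratio of Cebpb to Cebpa was 1.24 and 0.457 in young and 0.811 and 0.861 in aged libraries, so C/EBPβ transcripts outnumbered those of C/EBPα per length in young replicate 1 only. The ratio of Spi1 to Csf1r, a PU.1 target and the receptor of the macrophage growth factor CSF1, was 0.339 and 0.370 in young and 0.663 and 0.244 in aged libraries. The aged ratio thus went to either side of the young pair, as Csf1r did not share the swing of Spi1 (278 and 262 FPKM in the aged libraries). The ratio of Runx1 to its partner Cbfb was nearly constant at 0.218, 0.224, 0.216 and 0.206 in young replicates 1 and 2 and aged replicates 1 and 2. Here too both aged ratios lay below both young ones, by a narrow margin (two-sided exact p 0.333). The ratios of Irf5 to Irf8 (2.26 to 2.84) and Klf4 to Klf2 (0.544 to 0.701) overlapped between the ages (two-sided exact p 0.667 for each).

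The relatives of the 9 factors were read from lists by family, and limma called 0 genes in each list. Among Ets relatives of PU.1, 11 of 12 were tested and 9 had a higher mean in aged cells (median 0.12), but 5 of 11 did in the values as deposited. Fli1, an Ets factor of blood and endothelium, was 85.7 and 122.5 FPKM in young against 161 and 181 FPKM in aged libraries, a log2 difference of 0.73 (SE 0.24; limma, adjusted p 0.740). Etv3, an Ets repressor, was 36.0 and 37.4 FPKM against 47.0 and 48.7 FPKM, and Ets2, which responds to MAP kinase signals, 192.2 and 121.8 against 214 and 198 FPKM. In these 3 of 11 both aged libraries were above both young ones, beside 11.8% of all genes, and Etv3 had a difference of -0.25 in the values as deposited.

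Of the other C/EBP genes, Cebpe had the largest difference and the reverse direction of Cebpd. Cebpe, the C/EBP factor of late granulocyte maturation, was 0.984 and 1.20 FPKM in the young against 7.69 and 10.6 FPKM in the aged libraries, a log2 difference of 2.26 (SE 0.33; limma, p 4.3e-04, adjusted p 0.740). Neutrophil markers summed to 14.0 and 14.3 FPKM in young against 13.8 and 21.4 FPKM in aged libraries, mostly S100a8, S100a9 and, in aged replicate 2, Camp. Of the 9 markers found, both aged libraries were above both young ones in 2 and below them in 3. Without a minimum level, 2566 and 4716 of 22888 genes did so. Cxcr2, Elane, Retnlg and Ngp had means under 1 FPKM and were not tested. Cxcr2 was 0.143 and 0.397 against 1.30 and 1.42 FPKM and Elane 0.0946 and 0.505 against 1.64 and 0.871 FPKM, higher like Cebpe. The lower ones were S100a9 (6.478 and 3.545 against 2.216 and 1.338 FPKM), Retnlg (0.139 and 1.04 against 0 and 0 FPKM) and Ngp (0.375 and 0.720 against 0.2 and 0 FPKM). The part of neutrophils in the level of Cebpe was not tested. Ddit3, the stress-induced CHOP, was 19.0 and 20.3 FPKM in young against 12.4 and 12.2 FPKM in aged libraries (log2 difference -0.63; limma, adjusted p 0.740). Cebpg was 14.2 and 15.9 against 11.9 and 18.0 FPKM.

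IRF relatives had lower means in aged cells in 5 of 6 tested (median -0.45), where 6937 of 11656 genes tested did. The count of IRF relatives was 5 or 6 of 6 on each scaling. Irf8 and Irf5, both with a positive difference, were not among that majority, though both turned negative in the values as deposited (-0.41 and -0.20). Irf2, which antagonises IRF1 at shared sites, was 25.3 and 28.8 FPKM in young against 14.5 and 13.7 FPKM in aged libraries, a log2 difference of -0.89 (SE 0.22; limma, p 0.0071, adjusted p 0.740). Irf7, the amplifier of the type I interferon response, was 112.7 and 169 against 87.3 and 73.0 FPKM. Irf1, induced by interferon γ, was 44.9 and 42.6 against 35.3 and 26.8 FPKM. In these 3 of 6 both aged libraries were below both young ones, beside 26.2% of all genes.

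The small Maf genes Mafk and Mafg, whose proteins lack an activation domain, were 8.15 to 10.4 and 11.8 to 16.1 FPKM and had log2 differences of -0.25 and 0.24, the second of which was -0.08 in the values as deposited. Among Klf genes 9 of 16 were tested, with 5 higher and 4 lower means in aged cells, and 4 higher and 5 lower in the values as deposited. Klf6, an abundant inflammatory Klf gene of macrophages, was 628 and 581 FPKM in young against 734 and 707 FPKM in aged libraries. Klf3, a repressor, was 12.1 and 14.9 against 18.2 and 20.8 FPKM, and Klf9, induced by glucocorticoids, 9.84 and 9.20 against 18.2 and 12.2 FPKM. These 3 of 9 had both aged libraries above both young ones, the reverse of Klf4, beside 11.8% of all genes. Runx3, a relative of Runx1 used by lymphocytes and some myeloid cells, was 16.2 and 11.4 FPKM in young against 17.0 and 24.3 FPKM in aged libraries, and Cbfb was 92.9 to 106.1 FPKM.

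**Figure D4:**
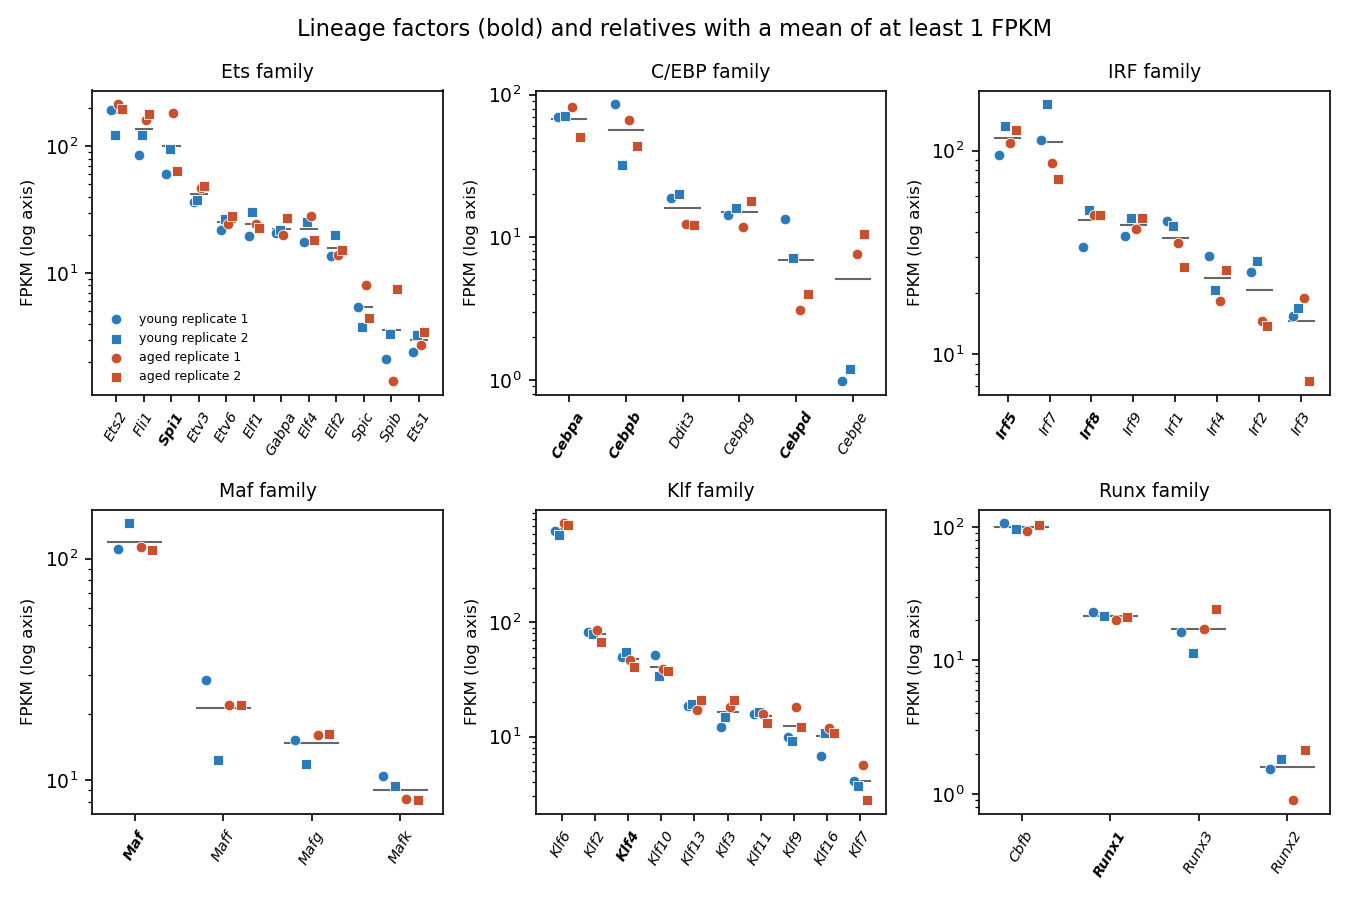
Levels in FPKM (log axes) of the 9 factors, in bold, and of the relatives shown, each with a mean of at least 1 FPKM, by family and in order of their mean, with young libraries in blue, aged libraries in red, replicate 1 as circles, replicate 2 as squares and the mean as a line. Klf6 stands above Klf4, and in the C/EBP family Cebpd (13.4 and 7.15 against 3.08 and 4.03 FPKM) and Cebpe (0.984 and 1.20 against 7.69 and 10.6 FPKM) lie in opposite order between the ages.

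Lists of textbook targets were read beside the factors, each described by counts, as limma called 0 of their genes. Of 23 targets of PU.1, 18 had a lower mean in aged cells, where 6937 of 11656 genes tested did (median -0.24, beside -0.09 over all genes). In 11 both aged libraries were below both young ones, beside 26.2% of all genes. With the median ratio this last count was 4 of 23, beside 18.2% of all genes on that scaling. Itgam, the integrin CD11b, was 106.6 and 105.9 FPKM in young against 68.0 and 60.5 FPKM in aged libraries, a log2 difference of -0.72 (SE 0.19; limma, adjusted p 0.740). Laptm5, a lysosomal membrane protein of blood cells, was 483 and 537 against 377 and 383.5 FPKM. Btk, a tyrosine kinase, was 41.3 and 46.2 against 36.4 and 26.6 FPKM, and Fcer1g, the shared Fc receptor γ chain, 1122 and 779 against 745 and 577 FPKM. Csf1r alone of the 23 had both aged libraries above both young ones, beside 11.8% of all genes.

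Of 14 tested targets of C/EBP factors, 6 had a higher and 8 a lower mean in aged cells (median -0.07), with 7 and 7 under the median ratio and 3 and 11 in the values as deposited. The chemokine Ccl3 was 128.4 and 69.7 FPKM in young against 57.8 and 45.9 FPKM in aged libraries, and the cytokine Il6 was 21.6 and 17.2 against 14.3 and 8.07 FPKM. Haptoglobin, Hp, was 64.2 and 53.5 against 87.4 and 69.98 FPKM, the reverse order. The list also holds Cebpe, given above.

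All 8 tested targets of IRF5 and IRF8 had a lower mean in aged cells (median -0.35), where 6937 of 11656 genes tested did. One of the 8 is Klf4 itself. With the median ratio 7 of 8 did (median -0.24), beside 5719 of 11622 genes. In 7 of the 8 both aged libraries were below both young ones, beside 26.2% of all genes, and with the median ratio in 3 of 8, beside 18.2%. Cd180, a Toll-like receptor relative, was 37.8 and 41.9 FPKM in young against 31.3 and 30.5 FPKM in aged libraries. Ctss, the protease cathepsin S, was 2834 and 2300 against 2268 and 1739 FPKM, and Cybb, a subunit of the phagocyte oxidase, 310.4 and 309.4 against 258 and 259 FPKM. Some targets stand in more than 1 list, as Cybb does under PU.1 and Il6 under C/EBP, so the counts are not independent.

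Of 6 tested targets of c-Maf, 3 had a higher and 3 a lower mean in aged cells (median -0.0015), and 0 and 6 in the values as deposited (median -0.36). Mrc1, the mannose receptor, was 366 and 321 FPKM in young against 282.3 and 281.8 FPKM in aged libraries. The complement gene C1qc was 993 and 1015 against 1061 and 860.2 FPKM, with overlap.

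**Figure D5:**
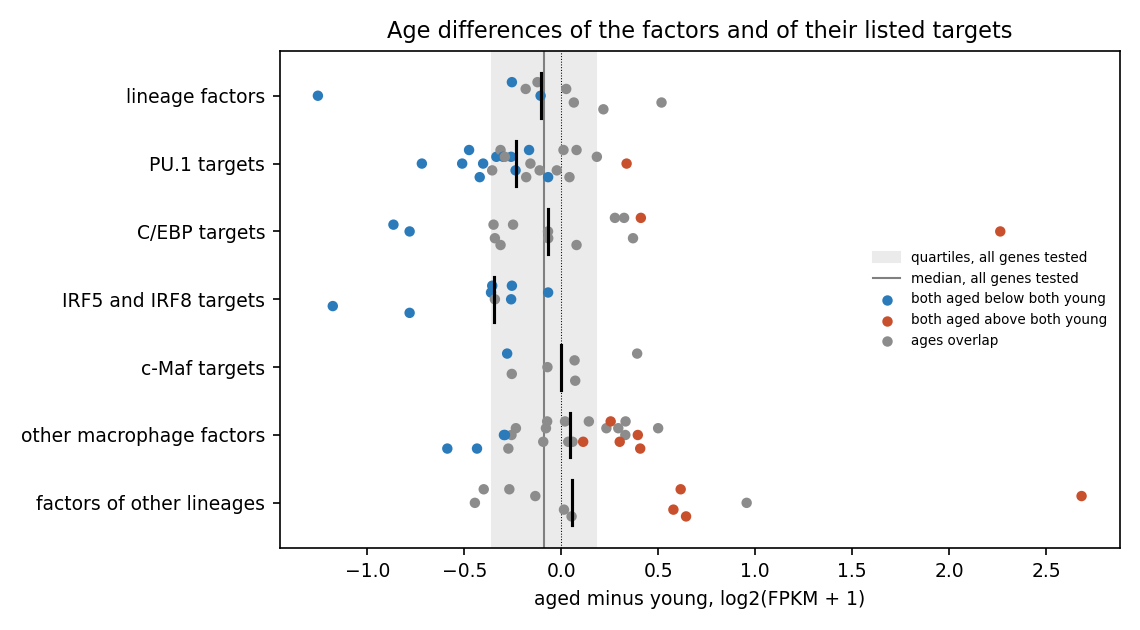
Difference between the ages (aged minus young, log2(FPKM + 1)) of each tested gene of 7 lists, in blue where both aged libraries lie below both young ones, in red where both lie above and in grey where they overlap. Black bars are list medians, and the grey line and band are the median (-0.09) and quartiles (-0.36 and 0.18) of all genes tested: the median is -0.24 for PU.1 targets, -0.35 for IRF5 and IRF8 targets and -0.11 for the 9 lineage factors.

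Other macrophage and monocyte transcription factors lay on both sides of 0, with 14 of 24 tested higher and 10 lower in the mean of aged cells (median 0.05), and 10 higher and 14 lower in the values as deposited. Egr1, an immediate early factor, was 216 and 288 FPKM in young against 138 and 199 FPKM in aged libraries, and Stat6, which carries interleukin 4 signals, 69.2 and 71.4 against 56.0 and 47.7 FPKM. Rela, the p65 subunit of NF-κB, was 46.2 and 48.8 against 58.6 and 67.2 FPKM. Id3, an inhibitor of basic helix-loop-helix factors, was 28.1 and 18.7 against 29.4 and 32.3 FPKM, with a difference of -0.0085 in the values as deposited. Of 23 factors that define other blood lineages, 12 had a mean under 1 FPKM and 11 were tested. Pax5, which defines B cells, was 0.793 and 0.461 FPKM in young against 18.7 and 4.48 FPKM in aged libraries (log2 difference 2.68, SE 0.62; limma, adjusted p 0.740). Tcf4, which directs plasmacytoid dendritic cells and is widely expressed, was 41.4 and 42.9 against 56.1 and 78.5 FPKM.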

How the data were processed

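RNA sequencing was read from 4 libraries of macrophages sorted from injured nerve, 2 from young and 2 from aged mice, grouped by their titles. Per the labels' protocols, RNA extraction was done in a single round for all libraries, with oligo-dT priming before multiple displacement amplification. The tools named per the submitters' processing notes are BWA 0.7.12, bcl2fastq and DESeq2, with the build mm10 and no roles. The counting program and its use of strand were not given in the sources used here. The authors deposited FPKM for 24028 genes.

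The deposited FPKM were scaled by a cycle of 12 read totals repeating along the table in text order of Entrez ID, so that 8.33% of values had their own library's total. That scaling was undone and each column put on the total of its own library. As a check, of 3959 genes with a mean under 0.5 FPKM and above 0 in every library, 78.2% then held ratios of whole reads (smallest at most 5 reads, within 0.002 reads), and 0% as deposited or with the totals moved by 1 place. Reads behind a factor are the smallest whole numbers that fit.

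The test was limma 3.58.1 (R 4.3.3) on log2(FPKM + 1) with empirical Bayes and an intensity trend, two-sided, over 11656 genes with a mean of at least 1 FPKM, with Benjamini-Hochberg adjustment and a threshold of 0.05, and it was tested on simulated data. Alternatives were the values as deposited, median ratio and quantile scaling, pseudocounts of 0.1 and 0.5, no filter, a mean of at least 5 FPKM, 2 other variance models, the replicate number as a block and leaving out each library. From each list, genes past the threshold, or else up to 4 with a mean of at least 5 FPKM whose ages did not overlap, by smallest p, filled to 2 with the most abundant, were named. Csf1r, Klf2 and Cbfb were named for the ratios. The values of 1 further relative, and the ratio that uses it, are not reported here. Cebpg, the overlapping genes and single markers were added as context. The factors and lists were chosen with earlier results of these data known. Exon overlaps were read from GENCODE M21, and promoters from RefSeq on GRCm38.p6, which gave windows for 6 of the 9 factors.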

Additional observations from a re-analysis of the deposited data

How the results depend on the processing

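Over 14 alternatives, Cebpd and Klf4 had the same direction in each, the other 7 factors turned in at least 1, and 0 of the 9 were called in any. Leaving out each library gave differences of -0.24 to 1.27 for Spi1, -0.46 to 0.22 for Cebpa, -0.66 to 0.71 for Cebpb, -0.081 to 0.52 for Irf8, -0.37 to 0.0069 for Maf, -0.17 to 0.30 for Irf5, -0.12 to 0.030 for Cbfb and -0.22 to 0.080 for C1qc. The values as deposited, in which the median of all genes was -0.31 in place of -0.09, turned Cebpb (-0.11), Irf8 (-0.41), Irf5 (-0.20), Etv3 (-0.25), Mafg (-0.083) and Id3 (-0.0085), and the median ratio turned Runx1 (0.0022), Cbfb (0.07) and C1qc (0.043). Factors with both aged libraries higher were 1 under the median ratio (Irf8), beside 17.2% of all genes there, and 0 in the other settings with all 4 libraries. Of all genes, 575 of 11838 were so as deposited and 1966 of 11656 under quantile scaling. Factors with both lower were 2 under the median ratio (Cebpd and Maf), beside 18.2% of all genes. They were 2 under quantile scaling (Cebpd and Klf4), beside 2604 of 11656 genes. As deposited they were 4 (Cebpa, Cebpd, Klf4 and Runx1), beside 4561 of 11838 genes. The ratio of Irf5 to Irf8 moved to 0.21 and that of Klf4 to Klf2 to -0.46 in the values as deposited, and the cause of these shifts was not tested beyond the totals.

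Of all genes, limma called 0 to 15 higher and 0 to 4 lower when 1 library was left out, the highest counts being without aged replicate 1. Each such fit leaves 1 library in an age, which is assumed to vary like the pair of the other age. The same-numbered libraries did not deviate together over all genes tested (correlation -0.000384). A single value over all genes cannot show whether same-numbered pools were handled together. With the replicate block 1 gene was called higher, Lars2, named after its value was seen (lowest adjusted p 0.0459), and 0 lower. With 2 pools per age and 60 to 347 reads, Cebpd has the least depth of the 9.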
